A study of Mus musculus with 2 samples.

Results

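The nuclear genes of the mitochondrial respiratory chain and ATP synthase were followed across the leukocytes of injured mouse kidney. Members were taken by symbol from the gene list of both single-cell count matrices: names starting with Ndufa, Ndufb, Ndufc, Ndufs, Ndufv, Uqcr, Cox4 to Cox8 or Atp5, together with Sdha, Sdhb, Sdhc and Sdhd. Of 32285 genes listed, 94 symbols matched, and 87 of these had at least 100 UMIs (unique molecular identifiers, counts of distinct captured transcripts) over both matrices. The lowest retained member was Ndufaf5 with 252 UMIs. The 7 symbols left out were Cox6a2 with 63 UMIs, Cox7a1 with 58, Cox4i2 with 50, Ndufa4l2 with 12, and Cox7b2, Cox8b and Cox8c with 0.

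The kidneys were from B6 mice given aristolochic acid nephropathy, a toxic injury of the proximal tubule used here as a model of chronic kidney disease, labelled as week 2, although the title of the sample also names W1; age and sex are not given in the sources used here. Cells had been sorted for CD45, the surface protein shared by leukocytes, and were captured as a single library of 2 hashed samples, so that antibody tags tell the samples apart. The labels do not say whether the hashed samples came from separate mice, and no uninjured group was analysed here. A tissue section was also profiled on Visium slides, and its expression was not analysed here.

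The respiratory chain passes electrons from NADH and succinate to oxygen and pumps protons across the inner mitochondrial membrane, and ATP synthase uses the returning protons to make ATP. Complex I (Nduf genes) oxidises NADH, complex II (Sdh) oxidises succinate, complex III (Uqcr) passes electrons to cytochrome c, complex IV (Cox) reduces oxygen, and complex V (Atp5) is ATP synthase. A few core subunits of complexes I, III, IV and V are encoded by mitochondrial DNA and carry the prefix mt-, so both genomes have to supply parts of the same machines. In leukocytes the balance of respiration and glycolysis is known to differ between resting, activated and dividing cells.

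Grouped by symbol, the 87 members comprised 37 genes of complex I, 8 complex I assembly factors (Ndufaf genes), 4 genes of complex II, 8 of complex III, 13 of complex IV and 17 of complex V. Ndufa4, whose name comes from complex I, was counted with complex IV, where its product is now placed. They were set against the 13 protein genes of mitochondrial DNA. The gene identifiers of all 87 were found in the GENCODE annotation of GRCm38, on 19 chromosomes, with 3 members on X and 86 annotated as protein coding. The exception, Ndufb1-ps, is annotated as a non-coding transcript. Near-identical copies of the 3′ end, which can draw reads away in counting, exist in the genome for 28 members.

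Depth was 20743037 UMIs over 3315 barcodes in hashed sample 1 and 25314154 UMIs over 3700 barcodes in hashed sample 2, with 0 barcodes shared. Of these, 6595 cells passed the filters, at a median of 5688 and 6576 UMIs a cell, and 5394 of them (81.8%) fell into leukocyte classes gated on marker genes that are not members. The label of the cell type, mesenchymal stem cells, goes against the sort for CD45 and the share of cells in leukocyte classes. The 3 fibroblast genes Col1a1, Col3a1 and Dcn summed to at most 24.4 CPM (UMIs per 1000000 UMIs) in any class. That follows largely from gating on leukocyte markers, and these genes were not summed in the ungated cells. T cells (at least 2 UMIs of Cd3d, Cd3e and Cd3g) had T cell marker sums of 3472 to 4109 CPM against 12.98 and 9.80 in macrophages. These sums hold the gate genes beside Trac and Trbc2, so the contrast follows in part from the gates. In the other direction, 7 macrophage markers summed to 390 to 683 CPM in the T cell classes and 1316 and 1882 in B cells. They summed to 18411 and 18617 in macrophages. No correction was made for macrophage RNA in lymphocyte droplets. Macrophages were gated on C1q genes (at least 50 UMIs per 10000), and of all cells 8.13% lay within 1.5-fold of that limit.

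All levels below are CPM: UMIs of a gene or set, summed over the cells of a class, per 1000000 UMIs of that class. Pairs of values give hashed sample 1 first and hashed sample 2 second. The labels name 1 single-cell sample, and cells cannot stand in for replicates, so no test was possible. A gene was called higher or lower only when each of the hashed samples showed a 1.5-fold or larger difference in that direction, after adding 10 CPM to each level, and 95% intervals cover counting error only. Levels are compared between classes, not between genes.

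Summed over the 87 members, CD4 T cells held the highest level and type 2 dendritic cells the lowest of the 7 classes with at least 50 cells in each hashed sample, but this order depended on the scaling. The level in CD4 T cells was 23164 CPM (22938 to 23392) and 22426 (22002 to 22856), that is 2.32% and 2.24% of all UMIs. T cells with neither or both of CD4 and CD8 transcripts had 21990 and 22506, and CD8 T cells had 20178 and 18979. Among myeloid cells, classical monocytes had 21096 and 19905, C1q macrophages 18706 and 18967, type 2 dendritic cells 18978 and 18445, and migratory dendritic cells 19594 and 18120. CD4 T cells overlapped with the T cells of neither or both kinds, the 3 myeloid classes other than monocytes overlapped one another, and CD8 T cells overlapped monocytes and migratory dendritic cells. CD4 T cells lay 1.22-fold above type 2 dendritic cells on average. With TMM factors, a scaling that sets most genes to be equal, the same ratio was 0.932, so neither order is firm. Classes under 50 cells were NK cells (22 and 14) with 17234 and 17578, patrolling monocytes (40 and 49) with 20238 and 18484, type 1 dendritic cells (42 and 65) with 20057 and 19340 and B cells (21 and 21) with 12693 and 13614.

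**Figure D1:**
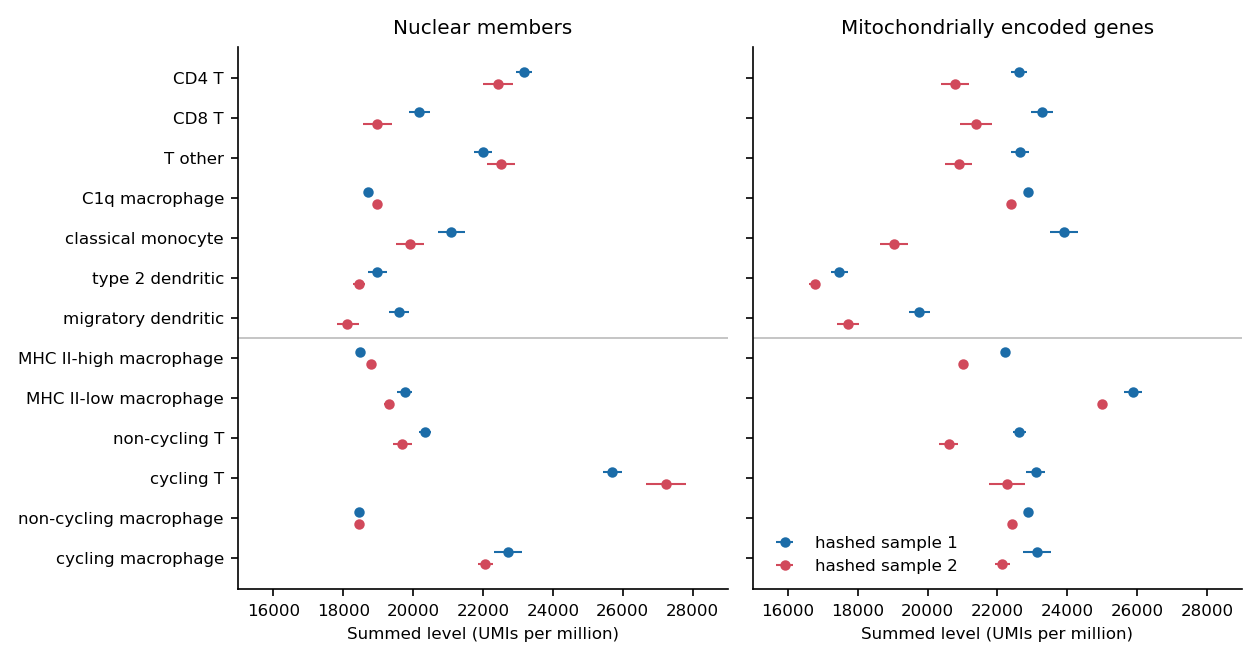
Summed level of the 87 nuclear members (left) and of the 13 mitochondrially encoded genes (right) in each class, in UMIs CPM UMIs of the class; the axis starts above 0. Points are the 2 hashed samples and bars are 95% Poisson intervals for counting error. Cycling T cells sit at 25704 and 27230 for the nuclear members against 20333 and 19688 in other T cells, while their mitochondrially encoded levels lie close together, and the order of T cell and myeloid classes depends on the scaling.

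Tubule RNA is rich in these transcripts: the 80 droplets set aside as tubule had 29717 and 33222 CPM. In the leukocyte classes the sum of 11 tubule markers lay between 22.1 and 171 CPM, against 4572 and 3985 in those droplets. The droplets were set aside on these markers (without Kap), so that contrast follows in part from the gate. The erythroid genes were at or near 0 in the leukocyte classes. Without the cells that held any tubule UMI, CD4 T cells had 23064 and 22629 and C1q macrophages 18631 and 18931, close to the levels over all cells of each class.

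By complex, the difference between CD4 T cells and macrophages was largest for complex V. Complex I summed to 6326 and 6126 CPM in CD4 T cells and 5327 and 5415 in macrophages, and complex II to 499 and 412 against 411 and 398. Complex III summed to 2142 and 2100 against 1779 and 1779, and complex IV to 6497 and 6225 against 5575 and 5479. Complex V, the ATP synthase, summed to 7495 and 7336 against 5471 and 5728. The assembly factors of complex I were sparse, at 205 and 227 against 142 and 168. The nearest values of complex II (412 and 411) all but touched, whereas each of the other 4 complexes and the assembly factors were apart under this scaling.

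As single genes, most members had a narrow range across the 7 classes. Of 77 members with at least 50 CPM in some class, 3 spanned 2-fold or more (1 on the log2 scale) between their highest and lowest class mean, or 3.90%, where 55.1% of the 3783 genes so measured did. The median range was 0.50 for members and 1.09 for all genes on the log2 scale. Among related sets it was 0.71 for 50 mitochondrial ribosome genes, 0.66 for 81 cytosolic ribosome genes, 1.03 for 9 glycolysis genes and 0.48 for 11 mitochondrially encoded genes. Atp5mpl, a small proteolipid of ATP synthase, had a range of 0.18, and Cox8a, a small subunit of complex IV, had 0.22. Under this scaling, of the 87 members 37 had their highest class mean in CD4 T cells, 22 in other T cells and 14 in classical monocytes, and 29 had their lowest in type 2 and 20 in migratory dendritic cells.

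**Figure D2:**
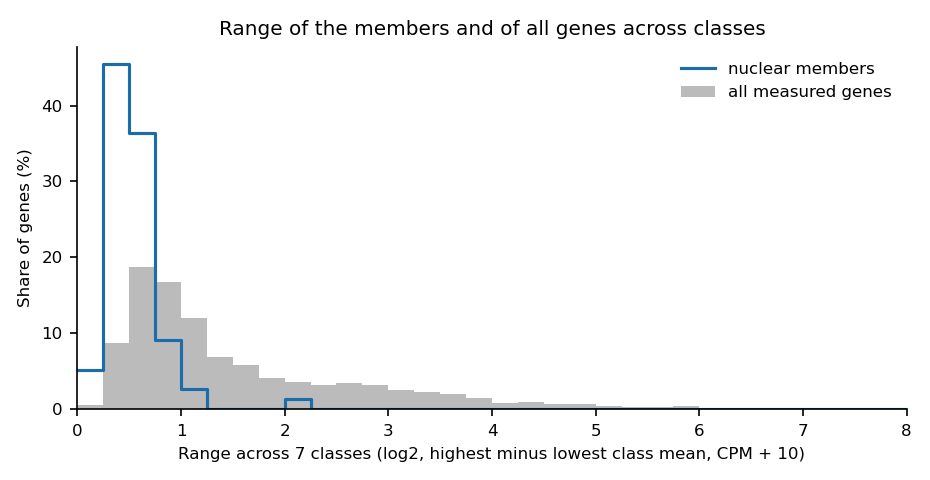
Distribution of each gene's range across 7 classes, as the log2 difference between its highest and lowest class mean with 10 CPM added, for the members and for all measured genes, in percent of each set. The members gather at low ranges (median 0.50) and the genes as a whole extend far to the right (median 1.09).

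Cox4i1, the constitutive form of complex IV subunit 4 and the member with the most UMIs, shows how level the chain was: 1317 and 1246 CPM in CD4 T cells, 1293 and 1274 in macrophages, and 1220 and 1118 in type 2 dendritic cells. Cox8a had 878 and 806, 761 and 708, and 740 and 702 in the same classes. Cox4i1 overlapped between CD4 T cells and macrophages, and Cox8a in CD4 T cells lay just above the other two classes, but with TMM factors Cox4i1 in CD4 T cells (1236 and 1085) lay below both other classes and Cox8a (824 and 702) overlapped with macrophages (874 and 782). The best captured members of complex I were less even. Ndufb8, a membrane-arm subunit, had 190 and 157 CPM in CD8 T cells against 276 and 261 in CD4 T cells and 304 and 308 in macrophages. Ndufa13, another subunit of that complex, had 402 and 375 in CD4 T cells, 250 and 270 in macrophages and 249 and 250 in type 2 dendritic cells.

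In complex II, Sdhb, the iron-sulphur subunit, stood at 228 and 185 CPM in CD4 T cells, 176 and 164 in macrophages, 119 and 95.8 in type 2 dendritic cells and 117 and 90.5 in migratory dendritic cells. The dendritic values lay below those of every T cell class and of macrophages, also with TMM factors. Sdha, the flavoprotein that oxidises succinate, had 96.6 and 86.3 in CD4 T cells and 67.5 and 74.6 in macrophages. In complex III, Uqcrh, the hinge subunit next to cytochrome c1, had 841 and 804 in CD4 T cells, 801 and 780 in CD8 T cells, 565 and 539 in macrophages and 627 and 609 in type 2 dendritic cells. Its T cell and myeloid values did not overlap under this scaling, but with TMM factors CD4 T cells (789 and 700) overlapped with type 2 dendritic cells (749 and 714). The gene lies at chr4:116066965-116075071 on the minus strand and has a near-identical pseudogene copy. Of the small subunits, Uqcrq had 253 and 288 in CD4 T cells and 255 and 257 in macrophages, where the log2 difference was -0.01 and 0.16. Uqcrb had 185 and 202 in CD4 T cells and 239 and 255 in macrophages, the order opposite to that of Uqcrh.

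Complex I assembly factors were too sparse to be measured in any comparison. The 3 with the most UMIs were Ndufaf8 (36.5 and 44.2 CPM in CD4 T cells, 42.5 and 48.2 in macrophages), Ndufaf4 (31.2 and 54.7, 26.3 and 30.0) and Ndufaf2 (32.4 and 42.1, 16.9 and 25.6). The gap between hashed samples of CD4 T cells in Ndufaf4 was as wide as the gap between classes.

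**Figure D3:**
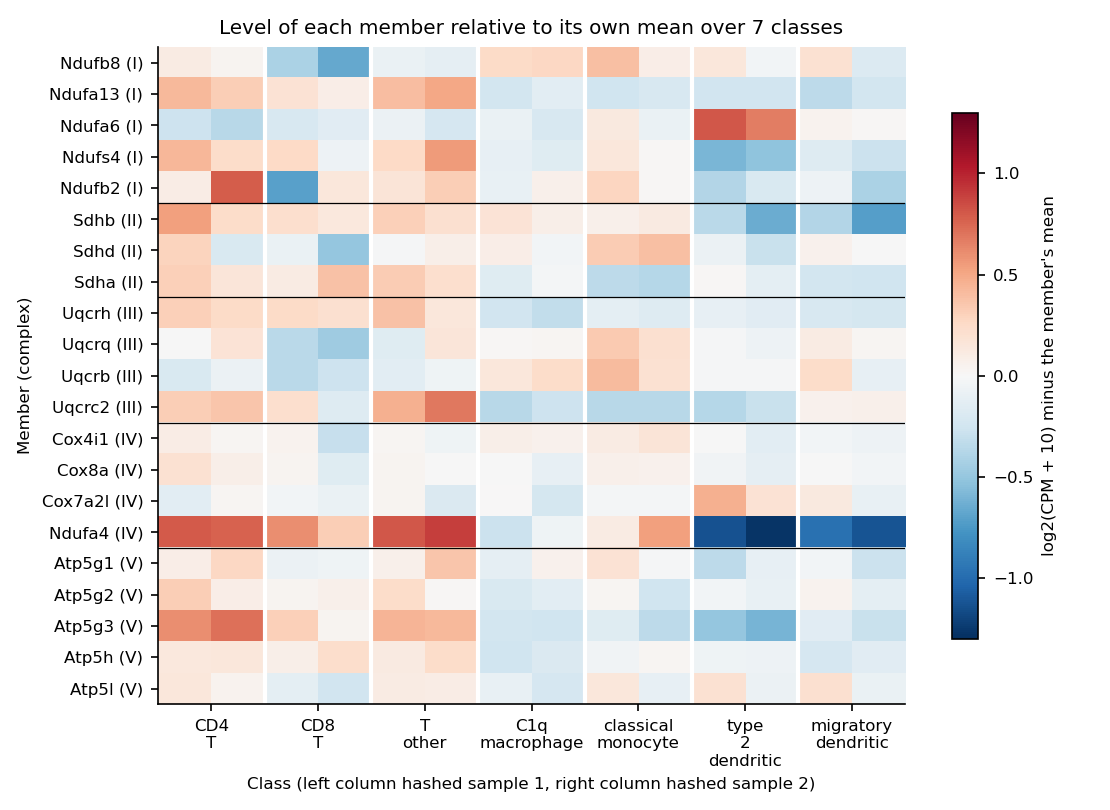
Level of 21 members in 7 classes, as log2 of the level with 10 CPM added minus the member's own mean; the left and right column of each class are hashed samples 1 and 2, and lines separate complexes I to V. Ndufa4 stands out, high in T cells and low in both dendritic classes, and Ndufa6 runs the other way, with its highest values in type 2 dendritic cells.

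The 5 members with the widest ranges were Ndufa4 (2.06 on the log2 scale), Atp5g3 (1.22), Cox6b2 (1.15), Ndufa6 (1.05) and Ndufaf7 (1.04). Ndufa4 is a subunit of cytochrome c oxidase that can be exchanged for its homolog Ndufa4l2. Its gene lies at chr6:11900292-11907497 on the minus strand (GRCm38). It had 387 and 379 CPM in CD4 T cells, 336 and 274 in CD8 T cells and 390 and 416 in other T cells. In myeloid cells it had 178 and 209 in macrophages, 235 and 320 in classical monocytes, 106 and 94.7 in migratory dendritic cells and 93.7 and 83.9 in type 2 dendritic cells. Type 1 dendritic cells (42 and 65 cells) had 196 and 289, above both other dendritic classes. The 2 dendritic classes at the bottom did not overlap with any other of these 8 classes, and the replacement form Ndufa4l2 was nearly unseen with 12 UMIs in all.

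Atp5g3 is 1 of 3 genes whose products are processed to the same c subunit of the ATP synthase rotor, and it lies at chr2:73908447-73911326 on the minus strand. It had 412 and 446 CPM in CD4 T cells, 333 and 274 in CD8 T cells, 225 and 221 in macrophages and 185 and 173 in type 2 dendritic cells. Its relatives were flatter. Atp5g1 had 322 and 366 in CD4 T cells, 279 and 316 in macrophages and 237 and 282 in type 2 dendritic cells, with a range of 0.44. Atp5g2 had 848 and 722, 590 and 619, and 665 and 637, with a range of 0.37. The CD4 T cell values of Atp5g3 and Atp5g2 lay above both macrophage values, and so, narrowly, did those of Atp5g1, but with TMM factors this held only for Atp5g3 of these 3 (387 and 389 against 259 and 244).

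Ndufa6 is an accessory subunit of complex I that docks the mitochondrial acyl carrier protein, and its gene lies at chr15:82350140-82354322 on the minus strand. It was highest in type 2 dendritic cells, with 479 and 433 CPM, against 222 and 208 in CD4 T cells, 253 and 232 in macrophages, 295 and 253 in classical monocytes and 278 and 271 in migratory dendritic cells. Cox7a2l, counted with complex IV by its symbol, was also highest in dendritic cells, at 1026 and 842 in type 2 and 1034 and 985 in type 1 cells. It had 670 and 753 in CD4 T cells and 740 and 629 in macrophages. Its type 2 values lay above those of the other 6 of the 7 classes, with a range of 0.44, but with TMM factors (1225 and 986) they overlapped with migratory dendritic cells (1010 and 838). It lies at chr17:83501918-83517330 on the minus strand. None of Ndufa4, Atp5g3, Ndufa6 and Cox7a2l shares exon sequence with another annotated gene or has a near-identical copy by the search used.

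**Figure D4:**
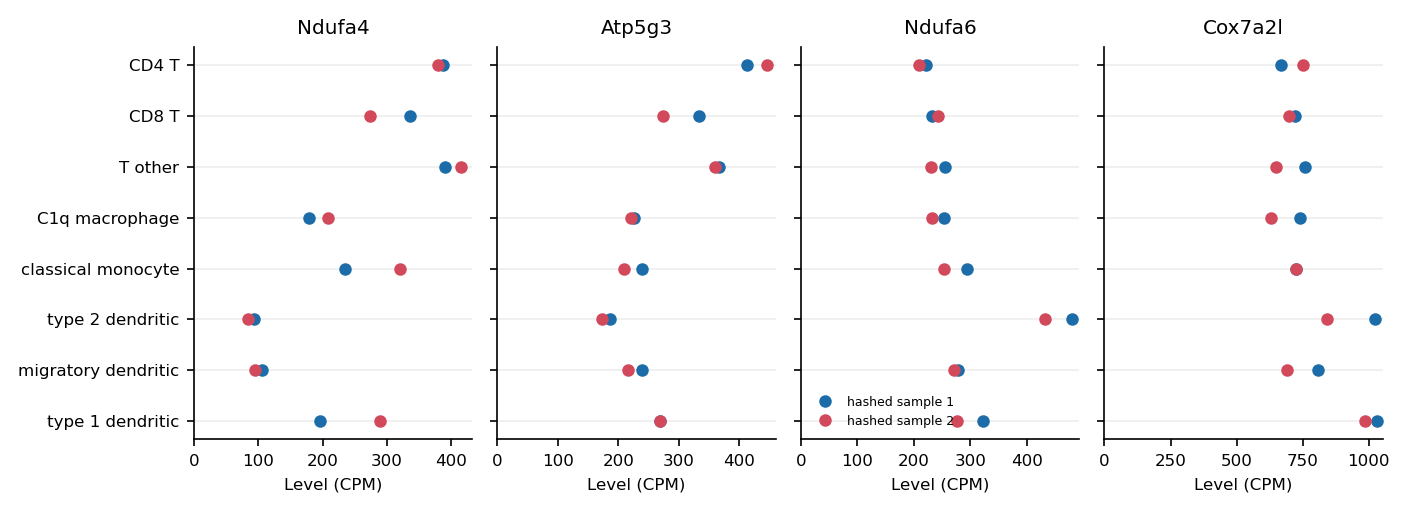
Level of Ndufa4, Atp5g3, Ndufa6 and Cox7a2l in 8 classes, in CPM. Points are the 2 hashed samples, drawn without intervals. Ndufa4 runs from 390 and 416 in other T cells to 93.7 and 83.9 in type 2 dendritic cells, where Ndufa6 reaches 479 and 433.

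Cox6b2 and Ndufaf7 were rare, and neither reached the 50 CPM asked of a measured gene. Cox6b2, the testis form of a complex IV subunit, had 0 UMIs in both CD4 and CD8 T cells of hashed sample 2 and 11.9 and 29.0 CPM in type 2 dendritic cells, with 367 UMIs in all gated cells. Ndufaf7, a methyltransferase that assists complex I assembly, had 27.5 and 33.4 in type 2 and 8.18 and 11.3 in migratory dendritic cells. The ratio of migratory to type 2 cells was 0.297 (0.110 to 0.690) and 0.339 (0.141 to 0.702). These classes are the ends of the range for which Ndufaf7 was named, so the intervals are no separate support for a difference. The 3′ end of Ndufaf7 has many near-identical copies in the genome.

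The mitochondrially encoded genes followed the nuclear members across classes only in part. Their summed level was 22611 and 20784 CPM in CD4 T cells, 23267 and 21378 in CD8 T cells and 22888 and 22380 in macrophages. It was 19758 and 17727 in migratory and 17475 and 16765 in type 2 dendritic cells. Under this scaling type 2 dendritic cells were lowest on average in both sums. CD8 T cells and macrophages lay below CD4 T cells in the nuclear sum but not in the mitochondrial sum. The ratio of mitochondrial to nuclear subunit UMIs within a class does not depend on the scaling factor. Among the 7 classes with at least 50 cells it was highest in macrophages, at 1.23 and 1.19, and lowest in type 2 dendritic cells, at 0.928 and 0.917, a ratio of 1.31 between the classes. CD4 T cells had 0.985 (0.971 to 0.999) and 0.936 (0.911 to 0.962), below CD8 T cells with 1.16 (1.14 to 1.19) and 1.13 (1.10 to 1.17). Classical monocytes spread from 1.14 to 0.963 between hashed samples, wide enough to overlap several classes. Outside these 7, the few B cells (21 and 21) had 2.16 and 2.41, NK cells 1.52 and 1.18 and type 1 dendritic cells 0.924 and 0.849. The filter removed cells over 10% mitochondrial UMIs, and with a limit of 5% the ratio between macrophages and type 2 dendritic cells was 1.29, with 20% 1.34, and as a mean over cells 1.56.

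CD4 T cells were compared with C1q macrophages because the series was designed to identify CD4 T cells and MHC II-low resident macrophages. Of 77 measured members, 3 were called higher in CD4 T cells and 0 lower, against 23.5% of all 3239 measured genes called higher and 20.8% lower. The median difference was 0.28 and 0.23 on the log2 scale over members and 0.26 and 0.22 over all genes. TMM factors moved the all-gene median from a mean of 0.24 to -0.13 and the member median from 0.26 to -0.05, so members as a set sat close to genes at large under either scaling. The called members were Ndufa4, Atp5g3 and Uqcrc2. Ndufa4 was 2.17-fold (1.98 to 2.38) and 1.81-fold (1.55 to 2.11) higher. Atp5g3 was 1.83-fold (1.68 to 1.99) and 2.02-fold (1.75 to 2.32) higher. Uqcrc2, a core protein of complex III, had 135 and 139 CPM in CD4 T cells against 80.4 and 86.4 in macrophages (log2 0.68 and 0.63); it lies at chr7:120635176-120659524 on the plus strand, overlapping an exon of Pdzd9 on the other strand. With TMM factors the mean log2 differences were 0.65 for Ndufa4, 0.60 for Atp5g3 and 0.36 for Uqcrc2, still above 0 but not 1.5-fold in both hashed samples.

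The signs within complexes were uneven. All 17 members of complex V lay above 0 in both hashed samples (6 of 17 with TMM factors), and so did 10 of 12 in complex IV and 22 of 36 in complex I. Atp5b, the catalytic beta subunit, had 630 and 585 CPM against 372 and 406 (log2 0.74 and 0.52). In all, 55 members (71.4%) were above 0 in both hashed samples, against 56.5% of all measured genes, and 11 below, against 34.1%; with TMM factors 19 were above and 33 below. The mitochondrially encoded subunits of complex I went the other way: 6 of 6 measured were below 0 in both hashed samples, and all 11 measured mitochondrial genes were with TMM factors. Mt-Nd1 had 1091 and 1050 in CD4 T cells against 1485 and 1452 in macrophages, and mt-Nd4 had 756 and 804 against 958 and 1014. For complex IV, mt-Co1 (4490 and 4019 against 4393 and 3909) and mt-Co3 (4953 and 4564 against 4796 and 4959) overlapped between the classes. Uqcr11, a small subunit of complex III, had the lowest difference of the nuclear members, -0.575 and -0.423, short of the 1.5-fold limit in both hashed samples.

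Among related lists, of 48 measured mitochondrial ribosome genes 11 were higher and 0 lower in CD4 T cells, and of 81 cytosolic ribosome genes 21 were higher and 1, Rps27l, lower. Read against the 23.5% of all genes called higher, neither share of higher genes stands far from the background. The copper chaperone Cox17, the complex II assembly factor Sdhaf1 and the complex IV assembly factor Surf1 were 3 of 10 assembly genes called higher. Mdh2 of the citric acid cycle (1 of 7 measured) and Gapdh and Ldha of glycolysis (2 of 9) were higher, and the mitochondrial carrier Ucp2 was the only 1 of 9 carrier and exchange genes called, as lower. Of the 8 regulators listed, such as Ppargc1a, Nrf1 and Tfam, 0 reached the measured level.

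MHC II-low macrophages (under 40 UMIs per 10000 for the sum of H2-Ab1, H2-Aa and H2-Eb1) were 16.8% (14.8 to 18.9) and 34.1% (32.1 to 36.3) of C1q macrophages, and 7.44% of macrophages lay within 1.5-fold of the limit. Ndufa4 was the only 1 of 77 measured members called in the comparison with MHC II-high macrophages, where 3.44% of all 2732 measured genes were called higher and 2.05% lower. Its level was 251 and 296 CPM where MHC II was low and 162 and 163 where it was high, without overlap (log2 0.60 and 0.82). The call was kept under 11 of 15 alternative settings and lost with TMM factors (mean 0.57), as a mean over cells and with gates doubled or lowered by the same factor. The member median was 0.15 and 0.07, beside 0.13 and 0.12 for all genes, and 54 members (70.1%) lay above 0 in both hashed samples against 60.4% of genes, with 9 below against 18.4% of genes. With TMM factors the medians lay on the other side, at a mean of -0.04 for members and -0.03 for all genes. The 11 measured mitochondrially encoded genes all lay above 0 (9 with TMM factors), with mt-Cytb of complex III at 1906 and 1998 against 1446 and 1522 (log2 0.40 and 0.39). The ratio of mitochondrial to nuclear UMIs was 1.32 and 1.31 in the MHC II-low cells, against 1.21 and 1.13 in the others. The ranges of that ratio did not overlap.

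Against classical monocytes (94 and 89 cells), C1q macrophages showed 0 called members of 77, where 6.93% of 2757 genes were called higher and 5.55% lower. The member median was -0.15 and -0.03, close to -0.08 and -0.04 over all genes; 10 members lay above 0 in both hashed samples (29.4% of all genes) and 34 below (43.2%), or 19 and 24 with TMM factors. Complexes IV and V leaned to monocytes, with 8 of 12 and 11 of 17 members below 0 in both hashed samples and 0 above (4 and 8 below with TMM factors, where 3 of complex V lay above). Ndufa4 came nearest to the limit, with 178 and 209 CPM in macrophages and 235 and 320 in monocytes (log2 -0.38 and -0.59). It lay below in both hashed samples without reaching 1.5-fold in the first.

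CD8 T cells were compared with CD4 T cells. Ndufb2 was the only 1 of 77 measured members called, as lower, against 1.99% of 2813 genes called higher and 3.55% lower in CD8 T cells. It had 28.0 and 58.7 CPM in CD8 and 56.1 and 96.8 in CD4 T cells (log2 -0.80 and -0.64), but its spread between hashed samples was as wide, it stayed called under 9 of 15 alternative settings, and it lies at chr6:39592574-39603382 where it shares exon sequence with Gm42420 on the same strand and with Braf on the other. As a set, 55 of 77 members (71.4%) lay below 0 in both hashed samples, against 46.2% of all measured genes, and 1 above, against 23.7%. The median was -0.16 and -0.21 for members and -0.09 and -0.12 for all genes. In complex V 15 of 17 were below 0, and the cytosolic ribosome genes leaned the other way, with 65 of 81 above 0. Of 11 mitochondrially encoded genes, 7 were above 0 and 0 below.

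Depth and cycling moved with that difference. CD4 T cells had a median of 4835 and 3680 UMIs a cell, CD8 T cells 3434 and 3392, and the sum of 6 cycling markers was 1035 and 621 CPM in CD4 and 546 and 179 in CD8 T cells. Among cells with at least 5000 UMIs (132 and 29 CD4, 43 and 13 CD8 cells), 22 of 76 members lay below 0 in both hashed samples and 17 above, and the summed levels were 24394 and 23483 in CD8 against 24706 and 25500 in CD4 T cells. The shares of all genes above and below 0 were not counted among these deep cells.

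Among dendritic cells, migratory cells (91 and 66) were compared with type 2 cells (125 and 248). Of 76 measured members 1 was called, Ndufa6, as lower in migratory cells with 278 and 271 CPM against 479 and 433 (log2 -0.76 and -0.65); of 2575 genes, 9.75% were called higher and 9.75% lower. The member median was 0.07 and -0.02, with 27 above 0 in both hashed samples (33.7% of all genes) and 18 below (43.8%). Type 1 dendritic cells fell short of 50 cells in hashed sample 1 (42 and 65), so only values are given. Relative to type 2 cells, Ndufa4 stood at a log2 difference of 0.99 and 1.67, Ndufs4, an accessory subunit of the NADH-oxidising arm of complex I, at 0.99 and 0.73, and Ndufa6 at -0.56 and -0.63. Ndufs4 had 132 and 115 CPM in type 1 and 61.5 and 65.0 in type 2 cells. The member median of 0.08 and 0.05 was near that of all 2580 measured genes, 0.01 and -0.05, with 36 members above 0 in both hashed samples (35.3% of genes) and 13 below (38.4%).

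Dividing cells held more of the nuclear transcripts in both lineages. Cycling cells had at least 3 UMIs of Mki67, Top2a, Birc5, Cdk1, Ccna2 and Nusap1. Cycling T cells (124 and 33) and cycling macrophages (46 and 174) each fell short of 50 cells in 1 hashed sample, so the values are given without calls. Cycling T cells had a summed level of 25704 and 27230 CPM against 20333 and 19688 in other T cells, 1.26-fold and 1.38-fold. Cycling macrophages had 22714 and 22067 against 18450 and 18462, 1.23-fold and 1.20-fold. In neither lineage did the hashed samples overlap, and the order held with TMM factors, at 24178 and 24287 against 19813 and 18509 in T cells and 23288 and 23084 against 21042 and 20504 in macrophages.

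In T cells 67 of 77 measured members (87.0%) lay above 0 in both hashed samples, against 44.5% of 2941 genes, with a median of 0.42 and 0.55 for members and 0.03 and 0.09 for all genes. In macrophages 71 of 77 (92.2%) did, against 46.7% of 2776 genes, with a median of 0.32 and 0.27 for members and 0.10 and 0.04 for all genes. With TMM factors the counts were 64 of 77 and 59 of 78, and the mean all-gene median was -0.004 in T cells and -0.048 in macrophages. The sums of all 5 complexes were apart between cycling and other T cells. Complex I had 6995 and 7550 CPM against 5597 and 5422, and complex II 590 and 509 against 392 and 390. Complex III had 2273 and 2480 against 2032 and 1900, complex IV 7155 and 7718 against 5805 and 5404, and complex V 8469 and 8745 against 6321 and 6393.

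Among single members, Atp5b had 771 and 780 CPM in cycling and 479 and 488 in other T cells, and 557 and 518 against 360 and 388 in macrophages. Ndufa4 had 509 and 570 against 312 and 298 in T cells, and 221 and 293 against 176 and 195 in macrophages. Across the alternative settings, the mean log2 difference in T cells ran from 0.19 to 0.83 for Atp5b and from 0.49 to 0.91 for Ndufa4. The following 3 genes were picked after their values were seen, as the highest in T cells. Sdhd, a membrane anchor of complex II, had 138 and 137 against 79.9 and 62.3, and in macrophages 123 and 110 against 95.3 and 85.0. Ndufc1, a membrane-arm subunit of complex I, had 97.1 and 134 against 50.1 and 66.9, and in macrophages 143 and 148 against 82.2 and 92.7. Uqcr10, a small subunit of complex III, had 368 and 369 against 211 and 202, and in macrophages 294 and 280 against 193 and 191. Each of these genes was apart between cycling and other cells in both lineages.

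The same 3 members lay below 0 in both hashed samples of both lineages, Ndufa6, Cox7a2l and Uqcrh, where 36.8% of all measured genes did in T cells and 32.3% in macrophages. Ndufa6 had 160 and 192 CPM in cycling against 271 and 237 in other T cells, and 192 and 175 against 257 and 241 in macrophages. Cox7a2l had 554 and 551 against 787 and 744 in T cells, and 583 and 550 against 750 and 642 in macrophages. Uqcrh had 708 and 701 against 910 and 799 in T cells, and 515 and 488 against 568 and 548 in macrophages. The log2 differences ran from -0.73 to -0.14, and with TMM factors all were below 0 too. Between MHC II-low and MHC II-high macrophages the 3 also differed downward, by less than the limit (Ndufa6 -0.18 and -0.25, Cox7a2l -0.21 and -0.19, Uqcrh -0.16 and -0.10). They were singled out after their values were seen.

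Over all cells of each class, the mitochondrially encoded sum differed less between cycling and other cells than the nuclear sum did, but in T cells this contrast shrank among deep cells. Its summed level was 23092 and 22276 CPM in cycling against 22626 and 20605 in other T cells, and 23131 and 22140 against 22872 and 22418 in macrophages. The ratio of mitochondrial to nuclear UMIs was 0.906 and 0.825 in cycling against 1.12 and 1.06 in other T cells, and 1.03 and 1.01 against 1.25 and 1.23 in macrophages. Among cells with at least 5000 UMIs it was 0.877 and 0.802 in cycling against 0.984 and 0.828 in other T cells, so that hashed sample 2 showed little difference, and 1.02 and 0.981 against 1.13 and 1.10 in macrophages. The mitochondrially encoded level of those deep T cells was 22530 and 21703 against 22740 and 19749. Of 11 mitochondrial genes measured in T cells, 5 lay above and 5 below 0 in both hashed samples. Outside the chain, all 9 measured glycolysis genes lay above 0 in T cells, at a median of 0.78 and 0.80, as did 43 of 49 mitochondrial ribosome genes at 0.43 and 0.41, while 58 of 81 cytosolic ribosome genes lay below 0.

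**Figure D5:**
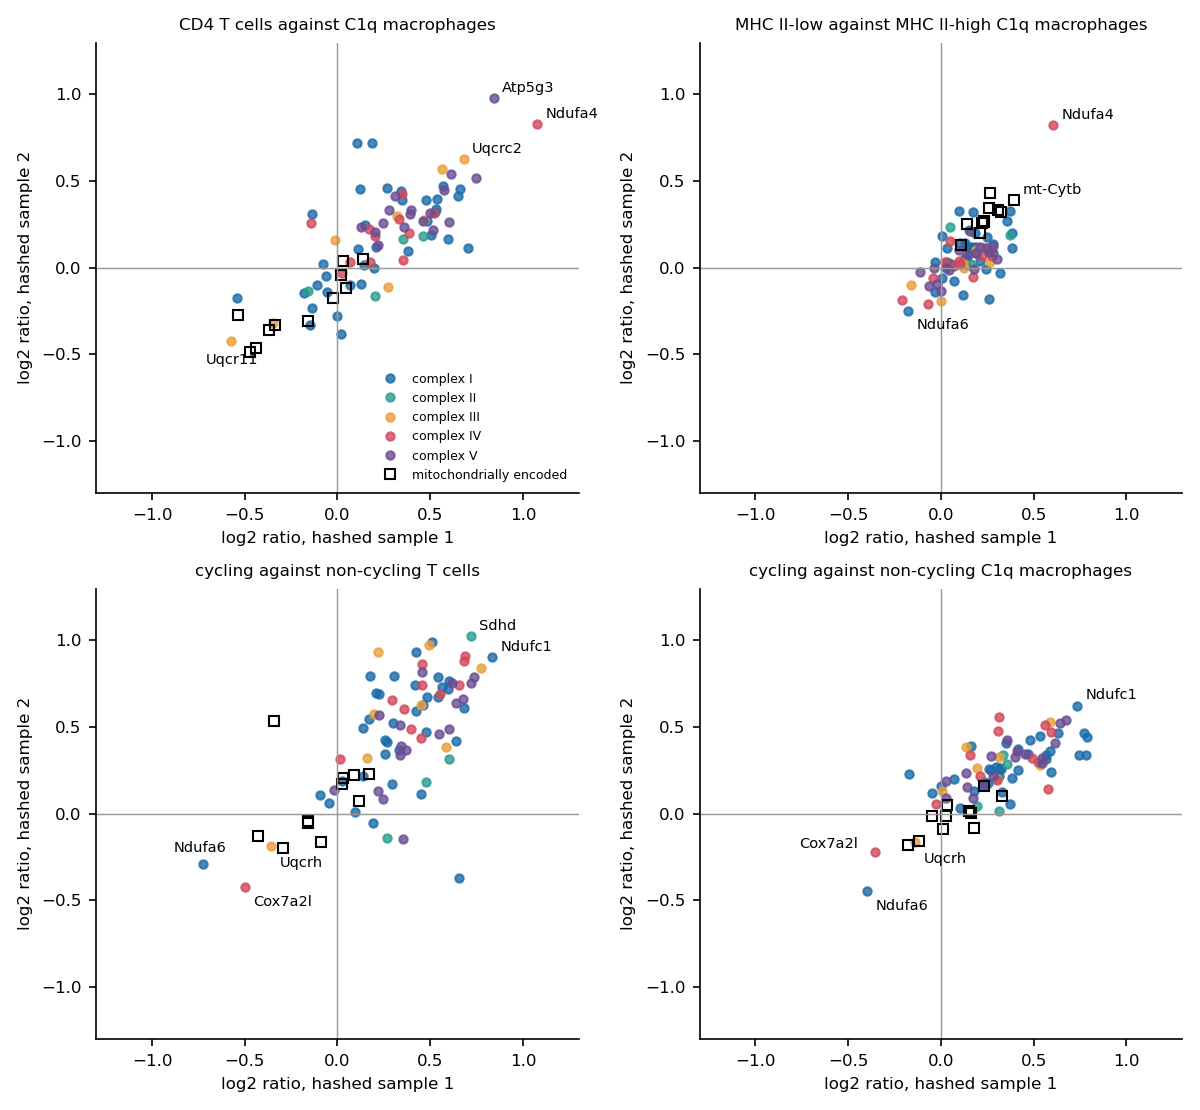
Log2 ratio of each measured member (circles, by complex) and mitochondrially encoded gene (squares) in hashed sample 1 (horizontal) and hashed sample 2 (vertical), with 10 CPM added, for 4 comparisons. In both cycling comparisons the circles gather in the upper right, except Ndufa6, Cox7a2l and Uqcrh at the lower left, and the squares lie around 0; the position of the clouds of the upper panels relative to 0 depends on the scaling.

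Cycling cells were also deeper and differed in makeup. The median was 8808 and 9225 UMIs a cell in cycling against 3587 and 3284 in other T cells, and 10583 and 11218 against 6242 and 6645 in macrophages. Among cells with at least 5000 UMIs, cycling T cells had 25915 and 27291 against 23304 and 24110 CPM (108 and 28 against 143 and 38 cells), so the mean log2 difference of the sums was 0.17 in place of 0.40, and 51 of 77 members lay above 0. The macrophage difference was 0.24 in place of 0.28. Of cycling macrophages 30.4% and 54.0% were MHC II-low. Within MHC II-high macrophages, 65 of 76 members lay above 0 in both hashed samples, and within CD4 T cells (68 and 14 cycling cells) 58 of 77 did, where Uqcrh was at -0.45 and 0.07 and thus no longer below 0 in both. The share of all genes above 0 was not counted among deep cells or within these classes, so these member counts have no background beside them.

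Promoters of a few members are shown because the chain is known to be served by shared factors: NRF1, the ETS factor GABP and YY1. Among them Ndufaf4, not measured in any comparison, is shown only for its motif. RefSeq promoter windows of 300 bases (250 before to 50 after the start, GRCm38.p6) were matched by symbol to 72 members with 77 windows. The NRF1 motif, GCGCA and GCGC with any base between them, on either strand, was found in 26.0% of member windows and 4.60% of all 32851 windows. The ETS motif CCGGAAGT was in 6.49% and 3.89%, and the YY1 motif, AAGATG followed directly by GCGG, in 7.79% and 0.852%. Any of the 3 was in 37.7% and 8.79%. A match is a description of the letters and shows no binding. The 150 bases before the start are printed in the sense of each gene, 5′ to 3′, with motif letters in capitals: Ndufaf4 as a window with the NRF1 motif (chr4:24897933-24898082, plus strand, motif starting 113 bases before the gene start), Uqcrh and Cox7a2l as members that were lower in cycling cells (chr4:116075071-116075220 and chr17:83514334-83514483, minus strand), and Uqcr10 as a member that was higher (chr11:4704345-4704494, minus strand).
Ndufaf4: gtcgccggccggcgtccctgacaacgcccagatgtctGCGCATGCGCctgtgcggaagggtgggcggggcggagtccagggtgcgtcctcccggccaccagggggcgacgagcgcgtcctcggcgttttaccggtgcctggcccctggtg
Uqcrh: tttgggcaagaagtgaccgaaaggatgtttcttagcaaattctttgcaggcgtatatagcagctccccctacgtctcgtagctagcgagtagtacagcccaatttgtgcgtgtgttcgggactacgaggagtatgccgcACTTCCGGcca
Cox7a2l: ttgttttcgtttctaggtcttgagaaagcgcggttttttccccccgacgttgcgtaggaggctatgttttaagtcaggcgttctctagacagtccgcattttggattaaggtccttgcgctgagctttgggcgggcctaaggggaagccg
Uqcr10: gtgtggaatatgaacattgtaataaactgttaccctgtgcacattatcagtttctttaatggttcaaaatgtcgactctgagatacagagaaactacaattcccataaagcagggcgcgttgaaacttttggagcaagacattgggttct

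The capitals in Ndufaf4 spell the NRF1 motif and those in Uqcrh the ETS motif read on the other strand, 11 bases before the start. The Cox7a2l window starts from the site at 83514333, 3 bases from the start of its protein-coding transcripts in GENCODE (83514330), while the gene outline reaches to 83517330 through a non-coding transcript whose start was not searched. None of the 3 motifs was in the printed bases of Cox7a2l or Uqcr10. Ndufa6 has the NRF1 motif in its window, and so does Atp5g3, 12 bases after the start. Of the 3 members lower in cycling cells, Ndufa6 and Uqcrh thus hold a motif in the window, and none was found in the window at the protein-coding start of Cox7a2l.

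As a scale for all of these differences, the hashed samples were compared within each class. In macrophages 0 of 77 members were 1.5-fold apart between hashed samples, against 2.25% of all genes. In CD4 T cells 3 of 78 were (Ndufab1, Ndufaf4 and Ndufb2; 8.01% of all genes), in CD8 T cells 2 of 77 (Ndufb2 and Ndufc1; 9.07%), in classical monocytes 1 of 77 (Ndufb7; 12.8%), and in other T cells and both dendritic classes 0. Ndufb2, the member called between CD8 and CD4 T cells, was thus among those that differed between hashed samples within a class.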

How the data were processed

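Both hashed samples were deposited as raw UMI counts per gene and cell barcode; Cell Ranger 6.1.1 and antibody capture are recorded per the file headers, and Cell Ranger 6.0, Seurat 4.3.0 and mm10 in the submitters' processing notes. Counts are from 3′ ends, so gene length does not enter. From these counts, barcodes with at least 200 genes, 500 UMIs, at most 10% mitochondrial UMIs and an undoubted hashtag (at least 10 counts and 2-fold over the next) were kept, which removed 420, of which 6 had a doubtful hashtag and 414 were over the mitochondrial limit. No doublet caller was run; cells passing gates of more than 1 lineage (162 and 128) were set aside, as were tubule and endothelial droplets. Raw counts were summed per class and hashed sample and scaled to all UMIs of the class. A gene was measured from 50 CPM in either class in each hashed sample. The rule of calls was tested on simulated data. Alternatives were TMM factors (edgeR 4.0.16, R 4.3.3), totals without mitochondrial genes, means over cells, pseudocounts of 1 CPM, other minimum levels, mitochondrial limits and gates, no tubule UMI, and each hashed sample alone. Settings chosen after seeing the data were lymphocytes kept despite shared myeloid markers and only cells of at least 5000 UMIs. So was the comparison of cycling cells within CD4 T cells or within MHC II-high macrophages. Shares of all genes above or below 0 in both hashed samples were counted under the main setting only. Python 3.11.15, numpy 2.4.6, scipy 1.17.1, pandas 2.3.3, matplotlib 3.10.9 and blastn 2.17.0+ (95% identity over at least 90 of the last 300 bases) were used. Genes were named if called (up to 10 each way) or among the 3 members of each complex with the most UMIs. Those among the 5 with the widest range and isoforms of another member were named too. Genes named beyond that include Atp5b, Atp5mpl, Uqcr11 and Ndufs4, and not all of them are marked. The members, lists and comparisons were chosen with earlier results of these data known. There is 1 single-cell sample and no replicate, so precision is limited to counting error.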

Additional observations from a re-analysis of the deposited data

Results flagged for a closer look

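Hashtag counts outside the main measurement held a further tag with 286 UMIs over all barcodes, a tag in neither hashed sample's settings; no barcode had it as its top tag. Among the mitochondrially encoded genes, 2 lay on opposite sides of 0 in cycling T cells and cycling macrophages in both hashed samples, and the difference was not tested. The mean log2 ratio of mt-Co3, a core subunit of complex IV, was 0.16 in T cells and -0.03 in macrophages, a difference of 0.19. That of mt-Nd4l, a small subunit of complex I, was -0.10 in T cells and 0.08 in macrophages, a difference of -0.18. No measured nuclear member lay on opposite sides of 0 in this way.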

How the results depend on the processing

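No paired analysis was possible because the labels give 1 single-cell sample with no replicate numbers and no result comes from a test. No called gene changed sign, but values without a call did: with TMM factors the ratio of CD4 T to type 2 dendritic cells crossed 1 and the member medians of CD4 T cells against macrophages and of MHC II-low against MHC II-high macrophages fell below 0, and type 1 against type 2 dendritic cells changed sign under 2 settings. The cause of each shift was not tested. Values are on the log2 scale where they are differences of sums. The ratio of summed levels between CD4 T and type 2 dendritic cells, 1.22, was 0.932 with TMM factors, 1.22 without mitochondrial genes in the totals (1.2239), 1.14 as a mean over cells, 1.25 with gates doubled, 1.19 with gates lowered by the same factor, 1.24 without cells holding a tubule UMI (1.2384), 1.24 with lymphocytes kept despite shared myeloid markers (1.2445) and 1.33 in cells of at least 5000 UMIs. The ratio between macrophages and type 2 dendritic cells in mitochondrial to nuclear UMIs, 1.31, was 1.56 as a mean over cells, 1.29 and 1.34 with mitochondrial limits of 5% and 20%, 1.39 and 1.28 with gates raised and lowered, 1.35 without tubule UMIs and 1.23 at 5000 UMIs.

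Counts over all genes grew with lower minimum levels. With 20 CPM and with no minimum, genes called were 2333 and 3048 in place of 1434 for CD4 T cells against macrophages, 563 and 759 in place of 344 for macrophages against monocytes, 273 and 384 in place of 156 for CD8 against CD4 T cells, and 797 and 1010 in place of 502 for migratory against type 2 dendritic cells. With no minimum 253 in place of 150 were called for MHC II-low against MHC II-high macrophages. At 5000 UMIs 94 were called for CD8 against CD4 T cells. With 1 hashed sample left out the counts were 222 to 301 for the MHC II comparison, 604 to 671 for macrophages against monocytes, 334 to 643 for CD8 against CD4 T cells and 813 to 836 for migratory against type 2 dendritic cells.

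Members called for CD4 T cells against macrophages were 3 of 77. They were 6 of 78 and 10 of 77 with 1 hashed sample left out and 8 of 77 at 5000 UMIs. All were higher, where 23.5% of all measured genes were called higher in the main setting. A call from 1 hashed sample asks less of every gene, so these counts are no stronger result for the members. The 1 member of the MHC II comparison, Ndufa4, became 0 with TMM factors, as a mean over cells and with gates raised or lowered. The 1 member of CD8 against CD4 T cells, Ndufb2, became 0 under those settings, without tubule UMIs and at 5000 UMIs. In hashed sample 2 alone 10 of 78 were called lower, where 444 of 3170 genes were. Macrophages against monocytes had 1 member called as a mean over cells and 1 in hashed sample 2 alone, in place of 0. Migratory against type 2 dendritic cells had 2 members with either lower minimum level and in hashed sample 1 alone, and 0 with gates lowered.

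The difference of sums between cycling and other T cells, 0.40, was 0.17 at 5000 UMIs. In macrophages, 0.28 became 0.16 with TMM factors, 0.31 as a mean over cells, 0.24 at 5000 UMIs (0.23927) and 0.24 within MHC II-high cells (0.23895). Type 1 against type 2 dendritic cells, 0.07, gave 0.042 with TMM factors, 0.02 as a mean over cells (0.0170), -0.0030 with a limit of 5%, -0.037 and 0.092 with gates raised and lowered and 0.02 without tubule UMIs (0.0159), so its sign is not settled. Ndufa4 stayed called between CD4 T cells and macrophages under 13 of 15 settings, Atp5g3 under 14, Uqcrc2 under 11 and Ndufa6 between dendritic classes under 14. Depth limits the assembly factors, Cox6b2 and every class under 50 cells, and with 1 capture the spread between mice is unknown.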
